A study of Homo sapiens with 30 samples.

Results

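The 9 genes CETP, HERPUD1, AOC2, AOC3, PSME3, CYP2D6, NDUFA6, IMPG2 and SENP7, at 4 places in the genome, were followed across antisense oligonucleotide (ASO) treatments of neuroblastoma cells. The low genes, 5 in number (CETP, AOC2, AOC3, CYP2D6 and IMPG2), were chosen by their measured values, as genes near 0 in control libraries that were higher with the oligonucleotide ASO10. AOC2 and AOC3 were not near 0 in the NGP controls, where their mean normalized counts were 299 ± 28.1 and 94.8 ± 12.0 (SD, n = 3), and they are called low here only by that choice. The other 4 (HERPUD1, PSME3, NDUFA6 and SENP7) are the expressed genes set beside them, on the same strand. These are 9 of the 52007 genes present in the tables of all 3 cell lines. Because the choice used the values of the 5 low genes in NGP and SK-N-BE(2)c cells, those values are given below as a description and without a test, and tests are given only for the expressed neighbours and for the low genes in the third line, IMR32.

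The cells were IMR32, NGP and SK-N-BE(2)c, which are established neuroblastoma lines, and each group was transfected by lipofection with 100 nM of 1 oligonucleotide. The long non-coding RNA NESPR was the target of ASO1, ASO2 and ASO10, and NCA was the negative control ASO, so that all groups, controls included, carried an oligonucleotide and the transfection reagent. IMR32 had 4 libraries each of ASO1, ASO2 and NCA. NGP and SK-N-BE(2)c had 3 libraries each of ASO2, ASO10 and NCA. This makes 30 libraries in 9 groups, and each group is 1 cell line. No ASO10 library of IMR32 and no ASO1 library of the other lines was analysed here. The labels do not say whether replicates came from separate cultures, so p-values measure only the spread between these libraries. The level of NESPR itself was not analysed here, and its knockdown is therefore not reported.

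Recovered reads per library ran from 9393587 to 15060356. All 6 markers of adrenergic neuroblastoma cells used here (PHOX2A, HAND2, GATA3, ISL1, TH and DBH) had a mean of at least 10 in every group. Their summed normalized count was lower with every ASO against NESPR than with NCA, without overlap. In NGP it was 26967 to 28228 with NCA, 23889 to 24703 with ASO2 and 19519.8 to 20195.5 with ASO10. In SK-N-BE(2)c it was 16559 to 18547, 15118 to 16538 and 12877 to 13826 in that order. In IMR32 it was 21271 to 22000 with NCA, 18511 to 20297 with ASO1 and 19599 to 20711 with ASO2. With ASO10, 6 of 6 fell by limma in NGP and 5 of 6 in SK-N-BE(2)c, beside 54.4% and 58.9% of all genes called. With ASO2, 4 fell and 1 rose in NGP and 3 fell and 3 rose in SK-N-BE(2)c, beside 58.7% and 67.0%. In IMR32, 3 fell with ASO1 and 2 with ASO2, beside 28.0% and 32.4%. Of the markers of other cells (PTPRC, CD3E, COL1A1, COL3A1, PECAM1, ALB, EPCAM, KRT18 and APOA1; 8 of these in the NGP and SK-N-BE(2)c tables), CD3E was at 0 in all 9 groups. PTPRC was at 0 in 5 of the 6 groups of NGP and SK-N-BE(2)c. The number of them with a mean of at least 10 was 5 with ASO10 and 2 with NCA in NGP, and 1 in each group of SK-N-BE(2)c. Their summed level was 224 to 289 with ASO10 and 217 to 238 with NCA in NGP, and 113 to 149 against 25.1 to 30.2 in SK-N-BE(2)c. Its part in the values below was not tested. In bulk samples, fewer cells of a type and less RNA per cell cannot be told apart.

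Genes that follow one another on the same strand are transcribed in the same direction, so the end of the upstream gene faces the start of the downstream one. RNA polymerase II normally leaves the DNA some way past the site where the nascent RNA is cleaved and polyadenylated, and the cleavage and polyadenylation factors, with the exonuclease that degrades the remaining RNA, take part in that termination. A count per gene records that reads lay in that gene's exons. The deposited tables hold 1 value per gene and library and no read positions, so transcripts begun at a low gene's own start and transcripts begun further upstream cannot be told apart.

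CETP, which encodes the cholesteryl ester transfer protein of plasma, lies on chromosome 16, 17.0 kb past the end of HERPUD1, a membrane protein of the endoplasmic reticulum that takes part in the degradation of misfolded proteins. AOC2 and AOC3, which encode copper-containing amine oxidases, lie head to tail on chromosome 17. AOC2 starts 0.841 kb past the end of PSME3, a proteasome activator subunit, and AOC3 starts 0.476 kb past the end of AOC2. IMPG2, which encodes a proteoglycan of the matrix around photoreceptors, lies on chromosome 3, 3.64 kb past the end of SENP7, a SUMO protease. In these pairs the expressed gene is upstream and on the same strand.

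The pair on chromosome 22 is arranged otherwise. CYP2D6, a cytochrome P450 that metabolises many drugs, is on the minus strand, and NDUFA6, which encodes an accessory subunit of mitochondrial complex I, lies 35.5 kb downstream of it on that strand and not upstream. The nearest gene lying wholly on the 5′ side of CYP2D6 with a control mean of at least 10 in NGP and SK-N-BE(2)c was TCF20, a transcriptional coregulator, 29.1 kb away on the same strand. CYP2D7, a close relative of CYP2D6, lies 9.30 kb upstream of CYP2D6, between it and TCF20. In IMR32 a gene on the other strand, 1.64 kb away, reached that mean, and TCF20 was the nearest with a mean of at least 100. TCF20 is therefore shown beside NDUFA6 throughout. Gene order, strand and distance are from GENCODE release 29 on GRCh38, which is not the build of the files.

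The RefSeq table on GRCh38.p14 held a promoter for 6 of the 9 genes. The promoters of 3 low genes and of HERPUD1 are shown so that the starts of low and expressed genes can be set side by side. Each is the run of 250 bases before the annotated start, 5′ to 3′ along the gene, with every match on either strand to the core promoter sequence TATAAA, the Sp1-type promoter sequence GGGCGG, the polyadenylation signal sequence AATAAA or the endoplasmic reticulum stress response element II in capitals. HERPUD1 and CETP are on the plus strand of chromosome 16 (chr16:56931892-56932141 and chr16:56961700-56961949), AOC2 on the plus strand of chromosome 17 (chr17:42844330-42844579) and IMPG2 on the minus strand of chromosome 3 (chr3:101320576-101320825).
HERPUD1: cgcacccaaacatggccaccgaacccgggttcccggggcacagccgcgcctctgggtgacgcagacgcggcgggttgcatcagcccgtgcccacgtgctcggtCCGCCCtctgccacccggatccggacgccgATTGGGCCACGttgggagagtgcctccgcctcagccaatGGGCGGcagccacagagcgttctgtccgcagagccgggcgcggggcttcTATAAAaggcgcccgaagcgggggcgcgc
CETP: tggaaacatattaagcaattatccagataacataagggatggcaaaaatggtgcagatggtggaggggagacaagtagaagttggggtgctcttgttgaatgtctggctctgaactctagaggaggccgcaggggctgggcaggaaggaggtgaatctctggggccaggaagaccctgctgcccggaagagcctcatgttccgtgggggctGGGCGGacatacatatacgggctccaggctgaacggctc
AOC2: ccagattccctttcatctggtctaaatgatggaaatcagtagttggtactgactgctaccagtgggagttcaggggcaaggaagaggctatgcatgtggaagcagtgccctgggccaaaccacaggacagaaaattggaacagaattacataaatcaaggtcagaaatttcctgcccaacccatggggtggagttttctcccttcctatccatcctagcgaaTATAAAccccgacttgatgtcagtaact
IMPG2: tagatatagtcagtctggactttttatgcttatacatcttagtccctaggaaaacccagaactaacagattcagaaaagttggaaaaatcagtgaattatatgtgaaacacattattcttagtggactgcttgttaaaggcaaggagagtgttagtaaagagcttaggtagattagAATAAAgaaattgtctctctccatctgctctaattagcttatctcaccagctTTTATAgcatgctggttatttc

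HERPUD1 had in these bases the endoplasmic reticulum stress response element II, 117 bases before the start, a sequence known to bind factors of the unfolded protein response. In windows of 300 bases (250 before and 50 after a start), 19 of 35116 RefSeq promoters held that sequence on either strand, or 0.0541%. The TATAAA match of HERPUD1 lay 29 bases before its start and that of AOC2 28 bases before, both along the gene's direction. That of IMPG2 lay 22 bases before, on the opposite strand. TATAAA occurred in 11.5% of promoters, GGGCGG in 45.0% and AATAAA in 17.4%. The single match in CETP was GGGCGG, 39 bases before the start. IMPG2 also held AATAAA, 74 bases before the start. PSME3 had no match to any of these 4.

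CpG content was compared in the same windows. The ratio of CpG observed to that expected from base composition was 0.317 in CETP, 0.121 in AOC2 and 0.107 in IMPG2. It was 0.997 in HERPUD1, 0.954 in PSME3 and 0.856 in NDUFA6. The median over the 35116 promoters was 0.579, so each of these 3 low genes lay under it and each of these 3 neighbours above it. TCF20 had 2 promoters in the table, 1 under the median at 0.531 and 1 above it at 1.15. AOC3, CYP2D6 and SENP7 are named without a sequence.

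In SK-N-BE(2)c, CETP had a normalized count of 0 in all 3 NCA libraries, of 5.52, 6.35 and 10.8 with ASO2, and of 137, 211 and 162 with ASO10. In NGP it was 4.55, 2.66 and 2.05 with NCA, 7.43, 12.8 and 8.90 with ASO2, and 92.7, 154 and 107 with ASO10. The ASO10 libraries stood far above all others in both lines, and the ASO2 libraries stood just above NCA with no overlap. Against a floor of 3 reads per control library, taken at the shallowest control, the mean of CETP in SK-N-BE(2)c with ASO2 was at least 2.41-fold higher, and the mean with ASO10 at least 54.1-fold higher. In NGP its difference from NCA on the log2(value + 1) scale was 1.41 (SE 0.34) with ASO2 and 4.88 (SE 0.34) with ASO10. That scale, used throughout, understates the change of low genes.

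AOC2 was not near 0 in the NGP controls, at 327, 299 and 271. With ASO2 its normalized counts were 831, 824 and 903, and with ASO10 they were 1441, 1402 and 1180. The same order held in SK-N-BE(2)c, where AOC2 was 19.9, 31.3 and 24.1 with NCA, 351, 287 and 287 with ASO2, and 373, 474 and 383 with ASO10. No library of one group overlapped another group, although in SK-N-BE(2)c the highest ASO2 library (351) came near the lowest ASO10 library (373). The log2 difference from NCA was 1.51 (SE 0.08) with ASO2 and 2.16 (SE 0.08) with ASO10 in NGP, and 3.59 and 3.99 (SE 0.15) in SK-N-BE(2)c.

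AOC3, the next gene along, encodes vascular adhesion protein 1. Its normalized counts in NGP were 81.0, 103 and 101 with NCA, 460, 379 and 452 with ASO2, and 985, 931 and 930 with ASO10. The SK-N-BE(2)c values were 10.5, 15.1 and 3.86 with NCA, 150, 131 and 163 with ASO2, and 312, 412 and 311 with ASO10. ASO2 and ASO10 libraries were apart from each other and from NCA in both lines. The log2 difference was 2.17 and 3.32 (SE 0.10) in NGP and 3.94 and 5.15 (SE 0.26) in SK-N-BE(2)c, ASO2 first.

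CYP2D6 was listed at 1.05, 1.01 and 0 in the NCA libraries of SK-N-BE(2)c, at 21.0, 20.8 and 12.0 with ASO2, and at 80.0, 73.6 and 55.9 with ASO10. With at most 1 read in a control, the ASO2 mean was at least 5.72-fold higher and the ASO10 mean at least 22.2-fold higher, on the same floor. In NGP it was 11.8, 9.75 and 8.20 with NCA, 45.5, 41.5 and 48.9 with ASO2, and 107, 96.0 and 93.7 with ASO10, again in 3 separate steps. The NGP differences were 2.09 and 3.20 (SE 0.22) on the log2 scale. Reads of CYP2D6, CYP2D7 and CYP2D8P may have been shared among these near-identical genes, so the split between them is uncertain.

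IMPG2 in NGP was 8.19, 7.09 and 5.13 with NCA, 35.3, 44.4 and 47.8 with ASO2, and 203, 212 and 213 with ASO10. Its SK-N-BE(2)c values were 2.09, 1.01 and 8.67 with NCA, 21.0, 29.9 and 40.8 with ASO2, and 181, 290 and 217 with ASO10. As for CETP, the step from ASO2 to ASO10 was the larger one. The log2 difference was 2.49 and 4.77 (SE 0.22) in NGP and 2.96 and 5.85 (SE 0.38) in SK-N-BE(2)c.

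All 5 low genes thus ran NCA, ASO2, ASO10 from low to high without overlap in both lines. Since the genes were picked for the ASO10 difference, nothing is read from the count itself. Beside it, 28.6% of all genes tested in NGP (30.4% for SK-N-BE(2)c) had every ASO10 library above every NCA library. For ASO2 against NCA the shares were 32.4% and 34.4%. The share of all genes with the full order of NCA, ASO2 and ASO10 was not counted. The ASO2 and ASO10 comparisons of a line use the same NCA libraries.

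**Figure D1:**
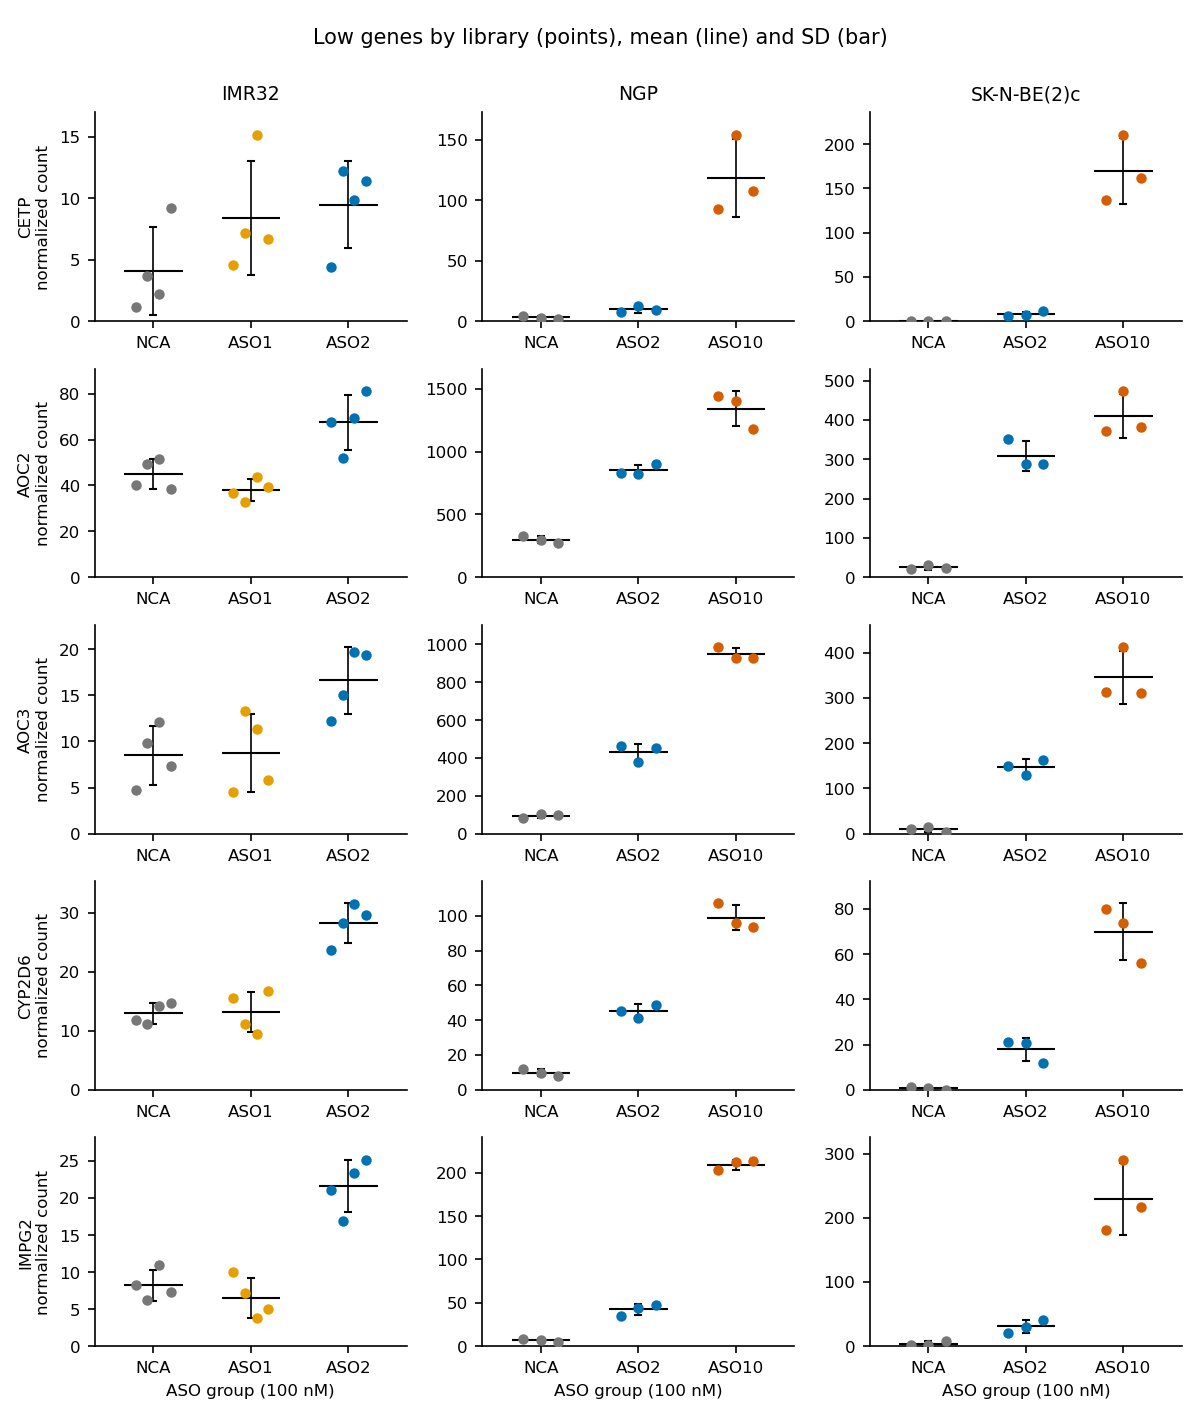
Normalized counts of the 5 low genes (rows) in the libraries of IMR32, NGP and SK-N-BE(2)c (columns), with points for libraries, lines for means and bars for SDs, each panel on its own linear axis from 0. The ASO10 libraries are the highest in every NGP and SK-N-BE(2)c panel, for CETP in SK-N-BE(2)c at 137 to 211 against 0 in all 3 controls.

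IMR32 was not part of the choice, which used ASO10, and so gives a separate look at the low genes under ASO2 and ASO1. Of the 5 low genes, 4 passed the filter for testing there (mean of 10 or more in the 12 libraries), and all 4 were called higher with ASO2, beside 17.6% of all tested genes. AOC3 and IMPG2 reached that mean only through the ASO2 libraries (16.6 and 21.6, against 8.50 and 8.19 with NCA), so their being higher is in part fixed by the filter and nothing is read from the count of 4. AOC2 and CYP2D6 had a mean of at least 10 in each group. In each of the 4, every ASO2 library was above every control, as for 16.3% of all tested genes. None of the 4 was called with ASO1 by limma, edgeR or DESeq2, and 0 of the 4 had an unadjusted p under 0.05 by limma. The share of all tested genes called higher with ASO1 was 13.6%. Calls are by limma at a Benjamini-Hochberg adjusted p under 0.05.

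AOC2 in IMR32 was 40.1, 49.3, 51.6 and 38.6 with NCA, 67.5, 51.8, 69.2 and 81.1 with ASO2, and 36.5, 32.7, 43.6 and 39.3 with ASO1. The lowest ASO2 library lay just above the highest control. The log2 difference was 0.57 (SE 0.16) with ASO2, with a limma adjusted p of 0.00834 and a two-sided exact permutation p of 0.0286, the smallest that 4 against 4 libraries allow. With ASO1 it was -0.23 (limma adjusted p = 0.295).

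IMPG2 rose most of the 4 with ASO2 in IMR32. Its normalized counts were 8.26, 6.17, 11.0 and 7.35 with NCA, 21.1, 16.9, 23.4 and 25.1 with ASO2, and 10.0, 7.16, 3.79 and 5.01 with ASO1. The ASO2 libraries lay above all 8 others. The log2 difference was 1.31 (SE 0.29, limma adjusted p = 0.00167) with ASO2 and -0.34 (SE 0.29, limma adjusted p = 0.417) with ASO1. IMPG2 passed the filter only through its ASO2 libraries, which these p-values do not take into account.

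CYP2D6 was 11.8, 11.1, 14.3 and 14.7 with NCA, 23.7, 28.2, 31.4 and 29.7 with ASO2, and 15.5, 11.2, 9.48 and 16.7 with ASO1. Again every ASO2 library was above all others, while ASO1 and NCA overlapped. It rose by 1.07 on the log2 scale with ASO2 (SE 0.22, limma adjusted p = 0.000983), and its ASO1 difference was 0.0037 (limma adjusted p = 0.993).

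AOC3 was 4.72, 9.87, 12.1 and 7.35 with NCA, 12.3, 15.1, 19.8 and 19.4 with ASO2, and 4.56, 13.3, 11.4 and 5.85 with ASO1. Its ASO2 libraries did not overlap the controls, by a margin of less than 1, and they overlapped ASO1. AOC3 passed the filter only through its ASO2 libraries, which its p-values do not take into account. The log2 difference was 0.93 (SE 0.33, limma adjusted p = 0.0361) with ASO2 and -0.0028 with ASO1 (limma adjusted p = 0.996). Under DESeq2 the ASO2 adjusted p was 0.0625, so this call is the weakest of the 4; 5 of the 12 libraries, left out singly, also ended it (ASO2 replicates 2, 3 and 4 and NCA replicates 1 and 4, limma adjusted p 0.0602 to 0.109).

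CETP did not reach a mean of 10 in IMR32. It was 1.2, 3.70, 2.20 and 9.19 with NCA, 4.39, 12.2, 9.88 and 11.4 with ASO2, and 4.56, 7.16, 15.2 and 6.68 with ASO1. The groups overlapped, with 1 control library among the treated ones, and the two-sided exact permutation p was 0.0571 for ASO2 and 0.171 for ASO1.

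ASO1 and ASO2 also differed from each other in IMR32. AOC2, CYP2D6 and IMPG2 were lower with ASO1 than with ASO2, by 0.80, 1.07 and 1.65 on the log2 scale (limma adjusted p = 0.000879, 0.00147 and 0.000317), and AOC3 was lower by 0.94 (limma adjusted p = 0.0482), beside 12.8% of all tested genes called lower in this comparison. For AOC3 and IMPG2, which were tested only through their ASO2 libraries, this direction too is in part fixed by the filter. Their p-values do not take that into account. The AOC3 call ended under DESeq2 (adjusted p = 0.0789), rescaling to a common total (limma adjusted p = 0.0667) and no filter (0.0988). It also ended without ASO1 replicate 1 or 4, ASO2 replicate 2, 3 or 4, or NCA replicate 2 or 4 (limma adjusted p 0.0554 to 0.133).

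The expressed neighbours were tested in every comparison, since the choice did not use their changes. HERPUD1 rose in 5 of 6 comparisons with NCA, and the called differences of PSME3, SENP7 and NDUFA6 were at most 0.48 in size on the log2 scale. In NGP, 2 of the 4 neighbours were called with ASO2 (2 higher) and 4 of 4 with ASO10 (2 higher and 2 lower), against 58.7% and 54.4% of all genes called in either direction. In SK-N-BE(2)c, 2 of 4 were called with ASO2 (2 higher) and 3 of 4 with ASO10 (1 higher and 2 lower), against 67.0% and 58.9%. In IMR32, 3 of 4 were called with ASO1 (1 higher and 2 lower) and 0 of 4 with ASO2, against 28.0% and 32.4%. The ASO2 count of 0 was also 0 by edgeR and DESeq2, and 2 of the 4 had an unadjusted p under 0.05 by limma. In the fit of those 2 groups alone PSME3 and NDUFA6 were called (limma adjusted p = 0.0348 and 0.0359), and with the replicate number as a block HERPUD1, PSME3 and NDUFA6 were (0.0377, 6.46e-05 and 0.0006).

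HERPUD1 is induced by endoplasmic reticulum stress in many cells. In NGP it was 1118, 1091 and 1102 with NCA, 2369, 2232 and 2435 with ASO2, and 2011, 1990 and 1845 with ASO10. It was 932, 938 and 836 with NCA, 1835, 1660 and 1732 with ASO2, and 1674, 1833 and 1667 with ASO10 in SK-N-BE(2)c. All treated libraries were above all controls, ASO2 lay above ASO10 in NGP, and the 2 ASOs overlapped in SK-N-BE(2)c.

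The HERPUD1 log2 difference from NCA was 1.09 (SE 0.06, limma adjusted p = 7.97e-14) with ASO2 and 0.82 (limma adjusted p = 1.18e-11) with ASO10 in NGP. It was 0.95 (SE 0.06, limma adjusted p = 3.61e-13) and 0.94 (limma adjusted p = 1.02e-12) in SK-N-BE(2)c. In IMR32 it was 610, 586, 602 and 589 with NCA, 904, 875, 831 and 713 with ASO1, and 604, 696, 720 and 607 with ASO2. There the ASO1 libraries were above all controls (log2 difference 0.47, SE 0.07, limma adjusted p = 4.34e-05), and ASO2 overlapped NCA (0.13, limma adjusted p = 0.16). In NGP, HERPUD1 and its downstream gene CETP thus ordered the ASOs differently. HERPUD1 was higher there with ASO2 than with ASO10 by 0.27 (limma adjusted p = 0.0003; 58.6% of all genes were called in this comparison), while CETP was 9.72 ± 2.80 with ASO2 and 118 ± 32.0 with ASO10 (SD, n = 3). In SK-N-BE(2)c the HERPUD1 difference between ASO2 and ASO10 was 0.015 (limma adjusted p = 0.85). In IMR32, CETP overlapped between ASO1 and ASO2.

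PSME3, upstream of AOC2 and AOC3, stayed within narrow limits. It was 5467, 5808 and 5499 with NCA, 5570, 5400 and 5326 with ASO2, and 4953, 4853 and 5090 with ASO10 in NGP. Values of SK-N-BE(2)c were 4403, 4577 and 4482 with NCA, 4436, 4464 and 4748 with ASO2, and 4038, 3974 and 4031 with ASO10. Only the ASO10 libraries were set apart, below all others of their line. PSME3 fell by 0.17 on the log2 scale with ASO10 in NGP (SE 0.05, limma adjusted p = 0.00308) and by 0.16 in SK-N-BE(2)c (SE 0.05, limma adjusted p = 0.00638). Its ASO2 differences were -0.04 (limma adjusted p = 0.463) and 0.02 (limma adjusted p = 0.743), and the second changed sign with libraries rescaled to 1 common total (-0.12, limma adjusted p = 0.0327). In IMR32, PSME3 was lower with ASO1 (2036 to 2576) than with NCA (2592 to 2997), by 0.26 (limma adjusted p = 0.0117), and its ASO2 difference was 0.18 (limma adjusted p = 0.0648). The ASO1 call ended without ASO1 replicate 3 (limma adjusted p = 0.0539).

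SENP7, upstream of IMPG2, was 274, 303 and 378 with NCA, 331, 319 and 264 with ASO2, and 231, 203 and 249 with ASO10 in NGP. It was 271, 250 and 336 with NCA, 204, 242 and 264 with ASO2, and 235, 189 and 206 with ASO10 in SK-N-BE(2)c. The ASO10 libraries lay below all controls in both lines, whereas ASO2 overlapped NCA. SENP7 fell by 0.48 (SE 0.12, limma adjusted p = 0.00153) in NGP and by 0.43 (SE 0.12, limma adjusted p = 0.003) in SK-N-BE(2)c with ASO10, the comparison in which IMPG2 was highest. The ASO2 difference was -0.06 (limma adjusted p = 0.7) in NGP and -0.27 (limma adjusted p = 0.0532) in SK-N-BE(2)c. In IMR32, SENP7 was 437, 519, 455 and 420 with ASO1 and 491, 590, 543 and 551 with NCA, lower by 0.25 (limma adjusted p = 0.0123), and this call ended without ASO1 replicate 4 (limma adjusted p = 0.0519) or NCA replicate 2 (limma adjusted p = 0.0562). With ASO2 its IMR32 difference was -0.06 (limma adjusted p = 0.581).

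NDUFA6, downstream of CYP2D6, was 1063, 1078 and 1062 with NCA, 1231, 1187 and 1213 with ASO2, and 1177, 1215 and 1227 with ASO10 in NGP. It was 1510, 1541 and 1679 with NCA, 1956, 1836 and 1944 with ASO2, and 1523, 1725 and 1621 with ASO10 in SK-N-BE(2)c. NDUFA6 rose with ASO2 in both lines without overlap, by 0.18 (SE 0.06, limma adjusted p = 0.0111) and 0.28 (SE 0.06, limma adjusted p = 0.000233), the first only without rescaling to the same total (0.11 with it, limma adjusted p = 0.112). With ASO10 it rose in NGP by 0.18 (limma adjusted p = 0.0144), and in SK-N-BE(2)c it overlapped NCA (0.04, limma adjusted p = 0.581). In IMR32 the differences were 0.08 with ASO1 (limma adjusted p = 0.504) and 0.21 with ASO2 (limma adjusted p = 0.0616).

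TCF20, upstream of CYP2D6, was higher in all 4 comparisons of NGP and SK-N-BE(2)c. In NGP it was 960, 993 and 1057 with NCA, 1256, 1403 and 1343 with ASO2, and 1363, 1374 and 1291 with ASO10. For SK-N-BE(2)c the values were 820, 759 and 740 with NCA, 928, 1001 and 1020 with ASO2, and 1122, 1134 and 1256 with ASO10. No treated library overlapped a control. The log2 differences were 0.41 and 0.42 (SE 0.06, limma adjusted p = 5.42e-06 and 4.48e-06) for NGP and 0.35 and 0.60 (SE 0.07, limma adjusted p = 6.74e-05 and 2.12e-08) in SK-N-BE(2)c, ASO2 first. In IMR32 it rose by 0.23 with ASO2 (SE 0.04, limma adjusted p = 0.000463), and its ASO1 difference was -0.09 (limma adjusted p = 0.111). With the replicate number as a block that ASO1 difference was called (limma adjusted p = 0.0257). With 3 against 3 libraries a two-sided exact permutation test cannot go below 0.1, and each of these NGP and SK-N-BE(2)c differences without overlap reached that value.

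The ASO effects on the neighbours were compared between NGP and SK-N-BE(2)c, whose tables share one scale, by an interaction term. None of the 4 neighbours and not TCF20 was called, with limma adjusted p from 0.181 to 0.933 over both ASOs, while 19.9% of all genes were called for ASO2 and 19.2% for ASO10. The smallest unadjusted p was 0.0634. The SEs of these differences ran from 0.0625 to 0.184 on the log2 scale, which limits the size of difference that could be called.

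**Figure D2:**
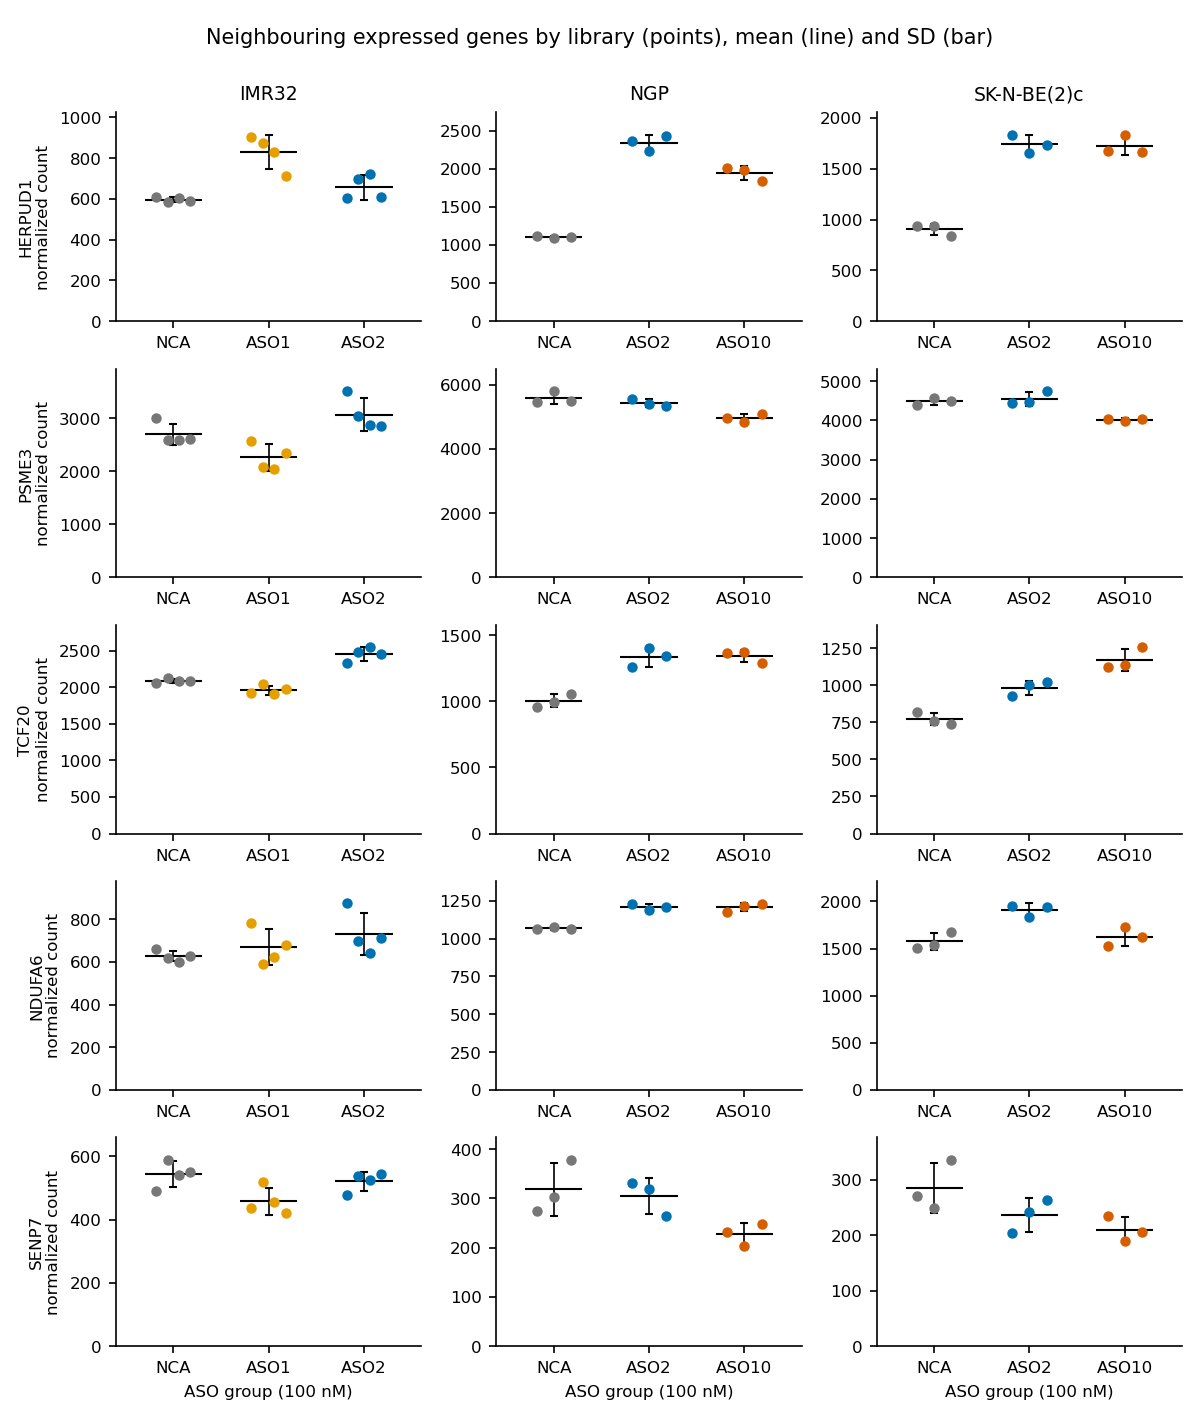
Normalized counts of HERPUD1, PSME3, TCF20, NDUFA6 and SENP7 (rows) by library in the 3 lines (columns), with points for libraries, lines for means and bars for SDs, linear axes from 0. HERPUD1 is higher with both ASOs in NGP and SK-N-BE(2)c (1660 to 2435 against 836 to 1118), while PSME3 and SENP7 are lower than NCA with ASO10 in both.

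Setting each pair side by side in a library removes its scaling, and the normalized count of the low gene per 100 of its neighbour is given here with SDs over libraries. The low gene's values chose the pair, so these ratios carry no test. CETP per 100 HERPUD1 in NGP was 0.279 ± 0.115 with NCA, 0.418 ± 0.138 with ASO2 and 6.06 ± 1.58 with ASO10 (SD, n = 3). In SK-N-BE(2)c it was 0, 0.436 ± 0.168 and 9.79 ± 1.67 in that order. The NCA and ASO2 ratios overlapped in NGP. In IMR32 the ratio was 0.688 ± 0.609 with NCA, 1.02 ± 0.566 with ASO1 and 1.43 ± 0.521 with ASO2 (SD, n = 4), all overlapping.

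AOC2 per 100 PSME3 was 5.35 ± 0.557, 15.7 ± 1.09 and 27.1 ± 3.35 with NCA, ASO2 and ASO10 in NGP, and 0.557 ± 0.117, 6.80 ± 0.992 and 10.2 ± 1.48 in SK-N-BE(2)c (SD, n = 3). The 3 groups were apart in each line. In IMR32 it was 1.68 ± 0.318 with NCA, 1.70 ± 0.312 with ASO1 and 2.22 ± 0.511 with ASO2 (SD, n = 4).

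The ratio of AOC3 to AOC2 also differed between groups. AOC3 per 100 AOC2 in NGP was 32.1 ± 6.48 with NCA, 50.5 ± 4.73 with ASO2 and 71.2 ± 6.64 with ASO10 (SD, n = 3). It was 39.0 ± 20.0, 48.4 ± 7.51 and 84.1 ± 2.86 in SK-N-BE(2)c, where NCA and ASO2 overlapped and ASO10 stood above both. The control ratio there rests on few reads, with AOC3 at 3.86 to 15.1. In IMR32 the 3 groups overlapped (18.6 ± 4.90 with NCA, 23.5 ± 12.8 with ASO1 and 24.9 ± 5.07 with ASO2, SD, n = 4).

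IMPG2 per 100 SENP7 was 2.23 ± 0.823 with NCA, 14.2 ± 3.76 with ASO2 and 92.7 ± 10.4 with ASO10 in NGP, and 1.25 ± 1.16, 12.7 ± 2.61 and 112 ± 38.7 in SK-N-BE(2)c (SD, n = 3). With ASO10 the low gene thus had about as many normalized counts as its neighbour. In IMR32 the ratio was 1.52 ± 0.424 with NCA, 1.43 ± 0.623 with ASO1 and 4.15 ± 0.675 with ASO2 (SD, n = 4), and the ASO2 libraries stood above all others.

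CYP2D6 per 100 TCF20 was 0.997 ± 0.229, 3.41 ± 0.392 and 7.36 ± 0.439 in NGP, and 0.0868 ± 0.0752, 1.84 ± 0.582 and 6.03 ± 1.40 in SK-N-BE(2)c (SD, n = 3; NCA, ASO2 and ASO10). In IMR32 it was 0.621 ± 0.0880 with NCA, 0.677 ± 0.178 with ASO1 and 1.15 ± 0.0969 with ASO2 (SD, n = 4). Set against NDUFA6 the order was the same, at 0.930 ± 0.172, 3.74 ± 0.274 and 8.21 ± 0.774 in NGP and 0.0449 ± 0.0389, 0.942 ± 0.283 and 4.32 ± 0.901 in SK-N-BE(2)c (SD, n = 3).

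**Figure D3:**
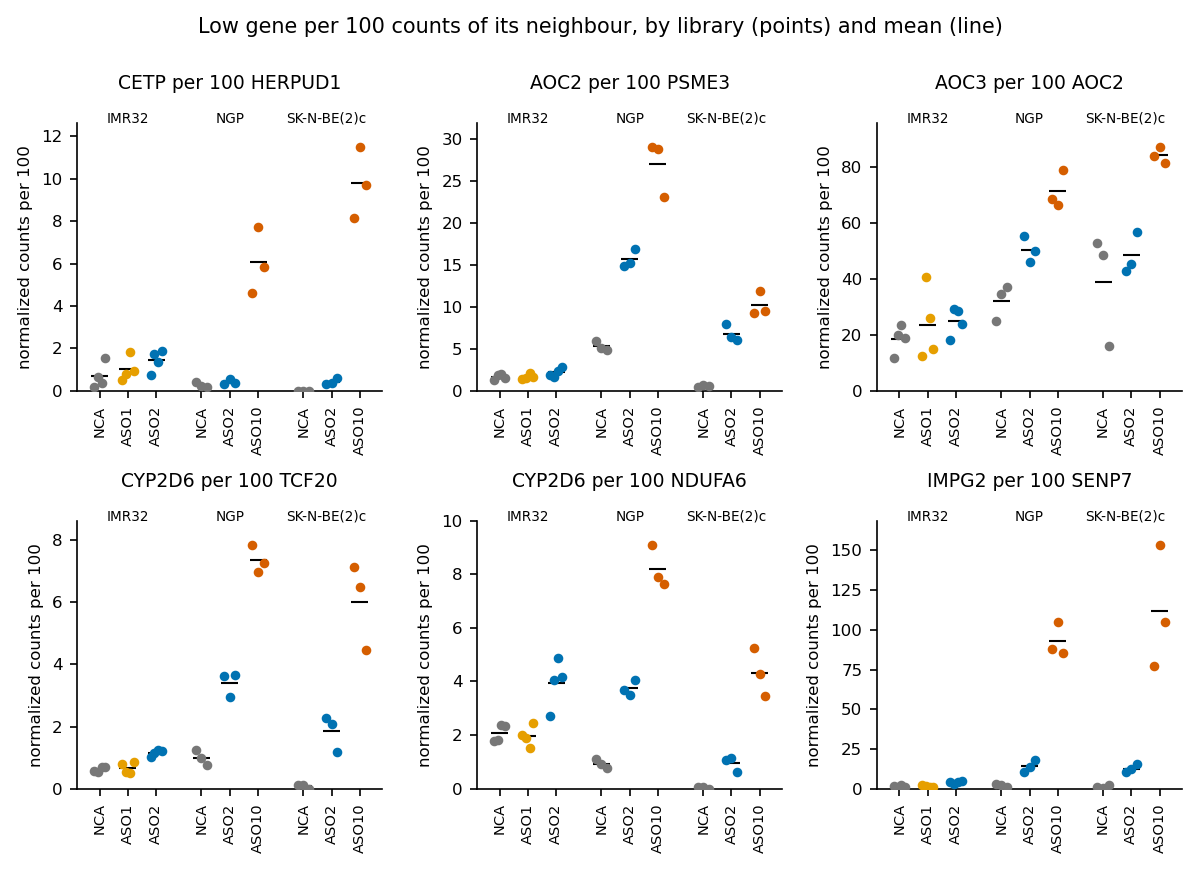
Normalized count of the low gene per 100 of its neighbour (linear axes from 0) for 6 pairs, with points for libraries and lines for group means, in each of the 3 lines. The ASO10 libraries have the highest ratios in each NGP and SK-N-BE(2)c group of points, for IMPG2 per 100 SENP7 at 77.1 to 154 in SK-N-BE(2)c.

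Levels of different genes can be compared only per length. Per kb of exon, IMPG2 in SK-N-BE(2)c had a mean normalized count of 27.5 with ASO10 and SENP7 had 32.9, against 0.471 and 44.7 with NCA. CETP reached 49.0 per kb with ASO10 against 335 for HERPUD1. AOC2 had 154 and AOC3 76.3 per kb against 779 for PSME3. CYP2D6 had 28.6 per kb, TCF20 155 and NDUFA6 1146. In SK-N-BE(2)c, IMPG2 thus came close to its neighbour per length, and CETP, AOC2, AOC3 and CYP2D6 did not. NGP gave 25.1 and 35.6 per kb for IMPG2 and SENP7 with ASO10. There AOC2 had 505 and AOC3 210 per kb against 964 for PSME3, so AOC2 stood nearer its neighbour than in SK-N-BE(2)c. CETP had 34.1 against 378 for HERPUD1, and CYP2D6 had 40.5 against 178 for TCF20 and 852 for NDUFA6.

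Genes further along the same strands were read in the same way. NLRC5 and AOC4P in NGP, and CYP2D7, CYP2D8P and WNK4 in NGP and SK-N-BE(2)c, had NCA means under 10 and passed the filter only through treated libraries, so their differences there are given without a p. NLRC5, an interferon-inducible member of the NOD-like receptor family, starts 5.64 kb past CETP. In NGP it was 1.82, 0.886 and 1.03 with NCA, 10.2, 7.90 and 8.90 with ASO2, and 87.6, 61.8 and 57.2 with ASO10. Those of SK-N-BE(2)c were 48.1, 31.3 and 23.1 with NCA, 27.6, 15.4 and 19.2 with ASO2, and 81.8, 110 and 86.0 with ASO10. The ASO10 libraries were highest in both, whereas ASO2 lay above NCA in NGP and mostly below it in SK-N-BE(2)c. The log2 difference of NLRC5 in NGP was 2.17 with ASO2 and 4.96 with ASO10. In SK-N-BE(2)c it fell by 0.67 with ASO2 (limma adjusted p = 0.0256) and rose by 1.46 with ASO10 (limma adjusted p = 2.34e-05).

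AOC4P, a pseudogene 7.79 kb past AOC3, was 3.64, 5.32 and 4.10 with NCA, 19.5, 26.7 and 28.9 with ASO2, and 81.5, 94.1 and 106 with ASO10 in NGP. Its order was that of AOC2 and AOC3 there (log2 difference 2.27 and 4.15). AOC4P did not reach a mean of 10 in the other lines. With SK-N-BE(2)c cells it was 3.72, 15.3 and 10.3 with ASO10 and at most 1.05 with NCA.

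CYP2D7 and CYP2D8P, the relatives upstream of CYP2D6, had higher means with both ASOs in NGP and SK-N-BE(2)c. CYP2D7 was 7.28, 11.5 and 8.20 with NCA, 36.2, 53.3 and 57.8 with ASO2, and 66.2, 73.2 and 51.3 with ASO10 in NGP. The 2 ASOs overlapped in NGP, and all treated libraries were above the controls. The log2 difference of CYP2D7 was 2.32 and 2.70 in NGP and 2.31 and 3.32 for SK-N-BE(2)c cells, ASO2 first. For CYP2D8P it was 1.34 and 1.32 in NGP and 2.24 and 2.92 for SK-N-BE(2)c cells. In IMR32, CYP2D7 rose by 0.67 with ASO2 (limma adjusted p = 0.00256), and its ASO1 difference was 0.21 (limma adjusted p = 0.339).

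Genes within 200 kb, the 9 genes left out, were counted where they were tested in both SK-N-BE(2)c and NGP, beside (NGP first) 54.4% and 58.9% of all genes called with ASO10. The counts include TCF20, CYP2D7, CYP2D8P, NLRC5 and WNK4, each among the higher genes in both lines. Of these, CYP2D7, CYP2D8P and WNK4, and NLRC5 in NGP, passed the filter only through treated libraries. Nothing is therefore read from the counts. With ASO10, the HERPUD1 and CETP region had 5 such genes (2 higher, 1 lower in NGP; 2 higher, 1 lower in SK-N-BE(2)c). The SENP7 and IMPG2 region had 6 (3 higher, 0 lower in NGP; 3 higher, 2 lower in SK-N-BE(2)c). The PSME3 region had 18 (5 higher, 5 lower in NGP; 7 higher, 7 lower in SK-N-BE(2)c). The region of CYP2D6 had 13 (5 higher, 2 lower in NGP; 5 higher, 3 lower in SK-N-BE(2)c). A further 6 genes were tested in NGP alone, of which 3 were called, all higher, and 4 in SK-N-BE(2)c alone, with limma adjusted p from 0.346 to 0.933. Those 3 were AOC4P, SLC12A3 (upstream of HERPUD1; log2 difference 2.28, limma adjusted p = 9.81e-08) and ENSG00000232710 in the CYP2D6 region (2.44), named after their values were seen. WNK4, a kinase gene that ends 47.7 kb before the start of AOC2, upstream of PSME3 and on its strand, differed with ASO10 by 4.28 in NGP, and for SK-N-BE(2)c cells by 3.83. IFI35, an interferon-induced gene 162 kb beyond the start of AOC2, rose by 1.87 and 2.30 (limma adjusted p = 1.25e-07 and 6.57e-07). ZBTB11, a zinc finger gene on the strand of SENP7 and IMPG2, rose by 0.93 and 0.52 (limma adjusted p = 3.67e-10 and 1.97e-07).

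**Figure D4:**
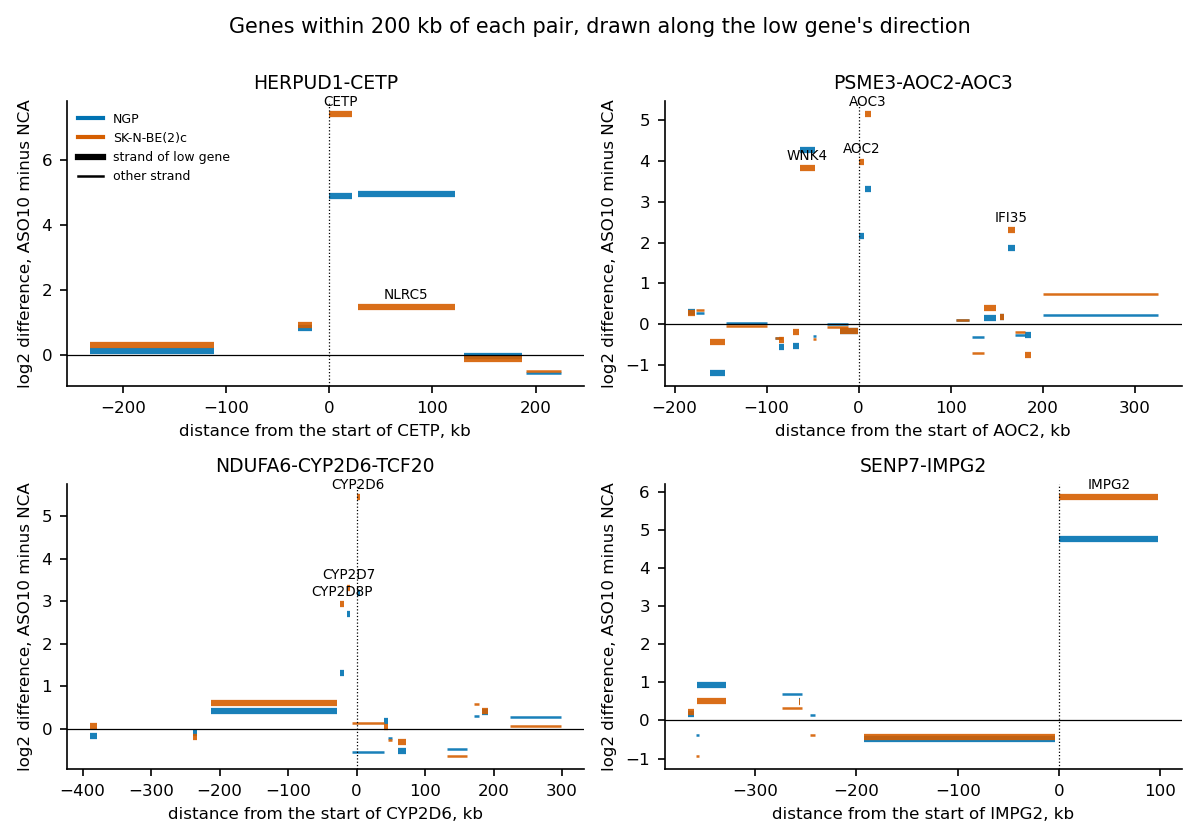
Log2 difference between ASO10 and NCA (y axis) of each gene within 200 kb of the 4 regions tested in both of these lines (NGP and SK-N-BE(2)c), drawn from its start to its end as distance in kb from the start of the low gene, along that gene's direction (x axis), thick on its strand and thin on the other. The low genes and a few others (NLRC5, CYP2D7, CYP2D8P, WNK4, IFI35) stand above 1, CNTNAP1 in NGP lies at -1.20, and the other genes drawn lie within 1 of 0. Genes tested in 1 line alone, such as AOC4P and SLC12A3, are not drawn.

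The same arrangement was looked for among all genes. For each gene with a NCA mean under 10, the 9 genes above left out, the nearest gene on its 5′ side with a mean of at least 10 was found and its strand recorded. Expressed genes that reached across the low gene's start, on either strand, were passed over. With ASO10 in NGP, that gene was on the same strand for 359 of 416 low genes that were called higher (86.3%, exact 95% interval 82.6% to 89.5%). The SK-N-BE(2)c count was 313 of 346 (90.5%, 86.9% to 93.3%). Over all low genes, tested or not, the share was 57.2% (NGP) and 56.0% (SK-N-BE(2)c). A gene low in NCA passed the filter only through a group where it was high, so these shares describe the genes that became high. The intervals count genes, which are not independent, and no test was made.

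With ASO2 the share among low genes called higher was 81.1% (167 of 206) for NGP cells and 82.1% (147 of 179) for SK-N-BE(2)c. Among low genes tested but not called higher with ASO2 it was much the same, at 79.7% (263 of 330) and 83.5% (223 of 267). Among low genes tested but not called higher with ASO10 it was 59.2% (71 of 120) and 57.0% (57 of 100). Most of the 330 and 267 genes not higher with ASO2 were therefore called higher with ASO10, and they are not a group without a rise. The ASO2 comparisons share their controls and their filter with ASO10. In IMR32 the share among low genes called higher was 41.6% (32 of 77) with ASO1 and 55.8% (43 of 77) with ASO2, beside 54.2% of all its low genes. Over protein-coding genes alone it was 63.0% and 61.1%, and 68.9% and 71.2% for those tested but not higher. The median gap to the same-strand gene was 10.5 kb in NGP and 8.97 kb in SK-N-BE(2)c for the low genes higher with ASO10, and 56.4 kb and 50.5 kb over all low genes. For low genes tested but not higher with ASO10 it was 28.2 kb and 27.6 kb. For those tested but not higher with ASO2 it was 10.3 kb in each line. As most of these were called higher with ASO10, they cannot show whether a short gap is particular to genes called higher.

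**Figure D5:**
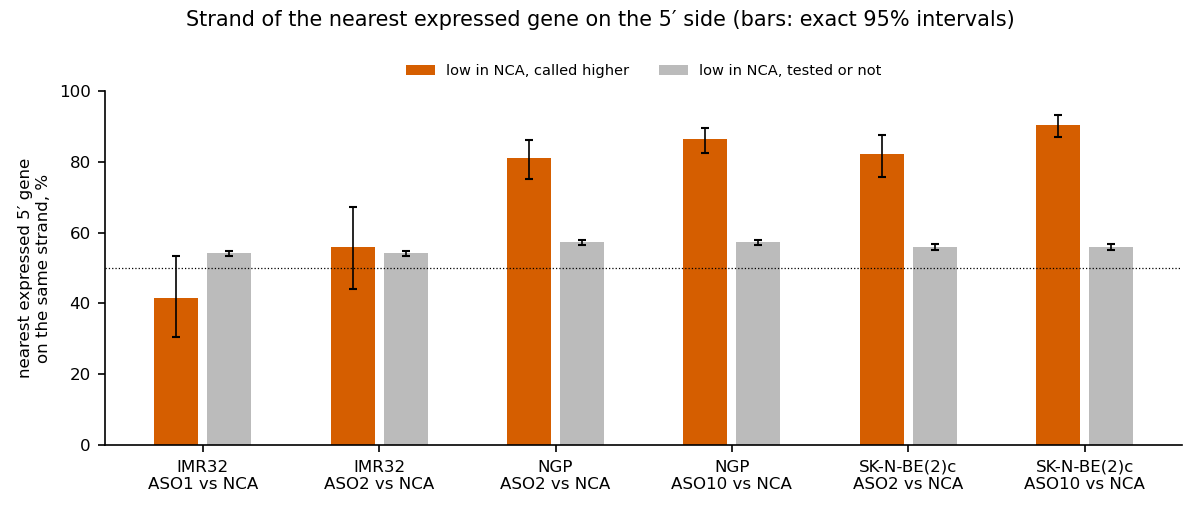
Percent of genes with a NCA mean under 10 whose nearest expressed gene on the 5′ side is on the same strand (y axis, 0 to 100) in each comparison with NCA, for genes called higher and for all low genes, with exact 95% intervals as bars, which count genes and not samples. The first share is 86.3% and 90.5% with ASO10, beside 57.2% and 56.0% of all low genes. Low genes were tested only where some group was high.

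Factors of cleavage, polyadenylation and termination (28 genes, all tested) moved in both directions. The share of all tested genes called, to set beside these counts and those of the next lists, was 58.7% with ASO2 and 54.4% with ASO10 in NGP cells, 67.0% and 58.9% for SK-N-BE(2)c, and 28.0% with ASO1 and 32.4% with ASO2 in IMR32. With ASO10, 9 rose and 8 fell in NGP, and 9 rose and 11 fell in SK-N-BE(2)c. NUDT21, a subunit of cleavage factor I, fell by 1.33 in NGP and by 1.30 for SK-N-BE(2)c cells (limma adjusted p = 2.57e-15 and 1.76e-14), and CSTF3, a subunit of the cleavage stimulation factor, fell by 0.89 and by 0.71 (limma adjusted p = 4.18e-10 and 1e-08). RBBP6 rose by 0.75 and 0.65 in the same comparisons. With ASO2, 9 rose and 13 fell in NGP, and 11 rose and 13 fell in SK-N-BE(2)c. PCF11, a termination factor, rose by 0.55 and 1.04, CPSF7 rose by 0.44 and 0.86, and XRN2, the nuclear exonuclease of termination, fell by 0.85 and by 0.88. NUDT21 under ASO2 differed by 0.26 (NGP) and 0.40 (SK-N-BE(2)c). In IMR32, 6 rose and 3 fell with ASO1, and 7 rose and 4 fell with ASO2, among them PCF11 (0.29, limma adjusted p = 4.85e-05). The median log2 difference of the list with ASO10 was 0.0155 (NGP) and 0.0280 (SK-N-BE(2)c), beside -0.0262 and -0.0310 over all tested genes. Whether any of these changes bears on the low genes was not tested.

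Partners of HERPUD1 in the degradation of endoplasmic reticulum proteins (18 tested) were mixed. With ASO2, 9 rose and 4 fell in NGP, and 10 rose and 5 fell in SK-N-BE(2)c, beside 58.7% and 67.0% of all genes called. SEL1L rose by 0.69 and 0.68, and EDEM3 fell by 1.03 and by 0.97. With ASO10, 4 rose and 2 fell in NGP, and 7 rose and 5 fell in SK-N-BE(2)c, with EDEM1 at 0.32 and 0.58 and DERL1 at -0.41 in each line. In IMR32, 4 rose and 1 fell with ASO1, and 5 rose and 3 fell with ASO2. The median with ASO2 was 0.08 (NGP) and 0.19 (SK-N-BE(2)c), beside 0.00902 and -0.02 over all genes.

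Of the proteasome genes set beside PSME3 (12 tested), 0 rose and 2 fell with ASO10 in NGP, and 3 rose and 5 fell in SK-N-BE(2)c, beside 54.4% and 58.9% of all genes called, which hold for the lists below too. PSMA3 fell in both, by 0.44 and by 0.81. Among other SUMO proteases than SENP7 (6 tested), SENP1 fell by 0.71 and by 0.52 with ASO10, and 1 rose and 1 fell in NGP against 0 and 3 in SK-N-BE(2)c. Accessory subunits of complex I (25 tested, NDUFA6 left out) had 1 higher and 6 lower in NGP and 5 higher and 6 lower in SK-N-BE(2)c with ASO10. NDUFA5 fell by 0.84 and by 0.80.

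Relatives of the low genes were counted in the same way. Among lipid transfer and lipoprotein genes beside CETP, 4 rose and 2 fell of 10 tested in NGP with ASO10 (54.4% of all genes called), and 4 rose and 2 fell of 8 in SK-N-BE(2)c (58.9%). APOE rose by 2.17 and 2.66 there, and with ASO2 by 1.76 and 2.00. Amine oxidases other than AOC2 and AOC3 (5 tested in each line) had 2 members lower (NGP) and 1 (SK-N-BE(2)c) with ASO10, LOXL3 falling in both (-0.57 and -0.51). Of the cytochrome P450 genes other than CYP2D6, 6 were tested for NGP and 4 for SK-N-BE(2)c, and CYP2D7, tested there only through treated libraries, was the single member called higher with ASO10 in each. Photoreceptor genes beside IMPG2 had 2 higher of 5 in NGP (SAG by 3.81, with a NCA mean under 10, and PRPH2 by 0.99) and in SK-N-BE(2)c the 3 tested (NRL, PDE6B and ROM1) had limma adjusted p of 0.795, 0.221 and 0.945.

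The genes whose values over the 18 libraries of NGP and SK-N-BE(2)c were most like each low gene were found by Pearson correlation of log2(value + 1) centred within line, among 12636 genes. These libraries share their groups, so genes with the same order of ASOs correlate, and the values are a description. CETP was most like CFAP251 (r = 0.984), MVP (0.983) and AL591845.1 (0.982). AOC2 was most like SLC25A25-AS1 (0.986), BRD2 (0.978) and AOC3 (0.974), and AOC3 like FERMT3 (0.986), RANBP10 (0.983) and BRD2 (0.982). CYP2D6 was most like COL7A1 (0.987), AOC3 (0.982) and OLFML3 (0.978). IMPG2 was most like LRRN4CL (0.980), GPR25 (0.971) and SPEF1 (0.970). With their own neighbours, over the same 18 libraries, r was 0.670 for CETP and HERPUD1, -0.550 for AOC2 and PSME3, -0.626 for AOC3 and PSME3, 0.404 for CYP2D6 and NDUFA6, 0.919 for CYP2D6 and TCF20, and -0.679 for IMPG2 and SENP7. Each neighbour had an r at least as large in size with a low gene of another place. It was 0.890 for HERPUD1 with AOC2, -0.838 for PSME3 with CETP and 0.595 for NDUFA6 with AOC2. TCF20 with AOC3 had 0.920 and SENP7 with CETP -0.752, so these r were not particular to the pairs.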

How the data were processed

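The deposited tables hold 1 normalized count per gene and library, 1 table per cell line, read here as a normalized signal, deposited as gene counts over 1 size factor per library (from the values). The submitters' processing notes name FastQC 0.11.8, cutadapt 1.18, STAR 2.6.0, HTSeq 0.6.1, DESeq2 1.42.0 and the builds hg19 and GRCh37, without their roles; strand use in counting is not given in the sources used here. Per the labels' protocols, libraries were made with a stranded total RNA kit or a stranded mRNA kit, and which library had which kit is not stated there. Steps between low values gave whole reads for 100% of values (tolerance 0.05), with size factors from 0.811 to 1.20. IMR32 was scaled by itself and the other lines jointly, so IMR32 levels were not set against theirs. In the IMR32 table, 174 entries without an Ensembl ID (0.172% of values) were left out. Columns of per-sample values not used numbered 0. For NGP and SK-N-BE(2)c, headers spell the control of replicate 1 differently from that of replicates 2 and 3; the titles give 1 group.

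Tests used limma 3.58.1 (R 4.3.3) on log2(value + 1), with a mean per group in 1 model per line and a variance trend, over genes with a mean of at least 10 in the table's libraries (17309, 14440 and 13556), with Benjamini-Hochberg adjustment over all of them and calls at an adjusted p under 0.05. The scripts were tested on simulated data. Alternatives were other pseudocounts and filters, rescaling, edgeR 4.0.16 and DESeq2 1.42.0 on recovered reads, a replicate block and each library left out. Named genes were the 9 genes, TCF20 and CYP2D7, genes within 200 kb, the 3 genes most correlated with each low gene, and up to 2 members per list and direction by adjusted p; NUDT21 with ASO2, AOC4P, CYP2D8P and the genes picked within regions were chosen after their values were seen. Members, lists and tests were chosen with earlier results of these data known. Some list members are not reported here and were left out of the lists' counts and sums. Where all controls had at most 3 reads, folds are bounds against 3 reads in the control library with the highest value per read; that floor was chosen after the values were seen, and against the mean floor the bounds were 2.50 and 56.2 for CETP and 5.95 and 23.1 for CYP2D6. Floors and intervals (Clopper-Pearson) cover counting error only.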

Additional observations from a re-analysis of the deposited data

Results flagged for a closer look

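In each IMR32 group of 4 libraries, the highest and the lowest library were compared with the rest of the group, for 48 sets of values. Chance sets about 1 in 20 such groups apart, and 2 of 48 were. PSME3 in NCA replicate 1 of IMR32 had a normalized count of 2997, while the other 3 controls lay between 2592 and 2605. Without that library the PSME3 difference between ASO2 and NCA was 0.23 (limma adjusted p = 0.0192), where it was 0.18 (limma adjusted p = 0.0648) with it. IMPG2 per 100 SENP7 in ASO2 replicate 2 of IMR32 was 3.15, below the 4.40 to 4.61 of the other 3 libraries and above the controls. The cause of either value was not tested.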

How the results depend on the processing

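The number of genes called stayed within 1.5 times in all 171 alternatives. Rescaling every library to the same total moved the median of all genes in SK-N-BE(2)c with ASO2 to -0.15 and gave PSME3 -0.11 (limma adjusted p = 0.0428) for NGP and -0.12 (0.0327) for SK-N-BE(2)c, NDUFA6 0.11 (0.112) in NGP and SENP7 -0.40 (0.00459) in SK-N-BE(2)c, all with ASO2. SENP7 in SK-N-BE(2)c with ASO2 was also called at a mean of at least 50 (-0.27, 0.0499), with edgeR (-0.28, 0.0366) and in the fit of the 2 groups alone (-0.27, 0.0495). In IMR32 that last fit called PSME3 (0.18, 0.0348) and NDUFA6 (0.21, 0.0359) with ASO2. AOC3 in IMR32 with ASO2 was not called without a filter (0.93, 0.0751) or with DESeq2 (0.96, 0.0625), and with ASO1 it was 0.00687 at pseudocount 5, 0.016 rescaled, 0.019 with edgeR and 0.028 with DESeq2. The difference of PSME3 effects between lines turned to -0.00666 (ASO2) and -0.00459 (ASO10) on rescaling. Low-gene differences in NGP and SK-N-BE(2)c moved in 19 of 156 such alternatives, for CETP in SK-N-BE(2)c with ASO10 from 5.11 at pseudocount 5 to 10.43 with edgeR. Same-strand shares moved in 5 of 24 alternatives, each time over protein-coding genes alone. The cause was not tested.

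With the replicate number as a block, HERPUD1 (0.13, limma adjusted p = 0.0377), PSME3 (0.18, 6.46e-05) and NDUFA6 (0.21, 0.0006) in IMR32 with ASO2 and SENP7 (-0.27, 0.0347) in SK-N-BE(2)c with ASO2 became called, and the block changed no other call of the 9 genes. Counts of calls in IMR32 rose with it to 6609 for ASO1 and 7419 for ASO2. Over genes with a mean of at least 10, no comparison had every same-numbered pair correlated above 0.1. At a mean of at least 50, a limit added after seeing the data, ASO1 against NCA in IMR32 did (0.112 to 0.564). At a mean of at least 500 these correlations ran from 0.233 to 0.751. The main fits did not treat the numbers as pairs, and the IMR32 correlations at the higher limits do not bear that choice out.

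Leaving out 1 library at a time gave, in IMR32, PSME3 -0.33 to -0.21 with ASO1 and 0.12 to 0.23 with ASO2, NDUFA6 0.12 to 0.27 with ASO2, SENP7 -0.31 to -0.21 with ASO1, AOC3 -0.22 to 0.23 with ASO1 and 0.71 to 1.11 with ASO2, and CYP2D6 -0.11 to 0.14 with ASO1. It gave SENP7 -0.16 to 0.073 in NGP with ASO2 and -0.36 to -0.14 in SK-N-BE(2)c with ASO2, PSME3 -0.012 to 0.037 with ASO2 and NDUFA6 -0.0032 to 0.088 with ASO10 in SK-N-BE(2)c. Differences of ASO10 effects ran from -0.017 to 0.028 for PSME3 and from -0.0897 to 0.16 for SENP7. Calls were gained without ASO1 replicate 1, ASO2 replicate 3 or NCA replicate 1 for PSME3, and without ASO1 replicate 1 or ASO2 replicate 3 for NDUFA6, in IMR32 with ASO2. For SENP7 in SK-N-BE(2)c with ASO2 they were gained without ASO2 replicate 3, ASO10 replicate 1 or 2, or NCA replicate 2. Depth limits the low genes most in the controls, where CETP had 0 reads in each SK-N-BE(2)c library and CYP2D6 at most 1.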
